A study of Rattus norvegicus with 20 samples.

Results

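The genes described here are 9 transcription factor genes of the injury and regeneration response of sensory neurons: Atf3, Jun, Sox11, Klf6, Klf7, Smad1, Creb5, Cebpd and Myc. They were selected by gene name from the 39747 entries of the count table. All 9 names were found, on 10 entries, because Atf3 (gene ID 25389) has a second, short entry under the same gene ID.

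RNA was sequenced from dorsal root ganglia (DRG), the ganglia that hold the cell bodies of sensory neurons, of young adult female wild-type Sprague-Dawley rats. Rats ate a control diet with soy oil (SOD) or a diet enriched in fish oil (FOD) for 4 weeks before surgery. In chronic constriction injury (CCI), the sciatic nerve of the left leg was loosely tied with chromic gut, and sham-operated controls (CT) had the same nerve exposed without ligatures. The groups were SOD-CT (n = 4), SOD-CCI (n = 3), FOD-CT (n = 3) and FOD-CCI (n = 4), all from the left side, and the right DRG of 3 SOD-CCI and 3 FOD-CCI rats, called contralateral, so that 14 left and 6 right libraries came from 7 sham and 7 CCI rats. The fourth FOD-CCI rat has no right library. Tissue was taken 1 week after surgery by the methods, whereas the series description has the diets continued for 4 weeks more. The spinal level of the ganglia was not given in the sources used here, and the right side is a control within an injured animal, not an uninjured animal.

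When a peripheral axon is damaged, signals travel from the lesion to the cell body and switch the sensory neuron from transmission to growth. The switch is carried by transcription factors that are scarce or inactive in the intact neuron. Atf3 and Jun belong to the basic leucine zipper class and can pair with each other. Sox11 and the Krüppel-like factors Klf6 and Klf7 are factors of developing neurons, Smad1 carries bone morphogenetic protein (BMP) signals to the nucleus, Creb5 and Cebpd bind DNA through leucine zippers of the CREB and C/EBP types, and Myc drives growth and ribosome production.

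Library totals ranged from 22547190 to 54437581 counts. Summed neuronal markers (12 genes) took 1.55 to 2.72% of the counts in 17 libraries, with 0.63% in SOD-CT replicate 1, 1.17% in FOD-CT replicate 1 and 0.389% in FOD-CCI contralateral replicate 1, where 2 of the 12 markers were at 0. Replicate 1 of all 3 FOD groups carried spinal cord transcripts (7 markers including Mog, Mobp and Gfap), with summed levels of 4106 CPM (a count divided by its library total, on a fixed scale) in FOD-CT, 4611 CPM in FOD-CCI contralateral and 2621 CPM in FOD-CCI. The other 17 libraries held 12.4 to 78.7 CPM of these markers, with up to 4 of the 7 at 0. SOD-CT replicate 1 had 96620 CPM of skeletal muscle markers (10 genes) and FOD-CT replicate 2 had 21360 CPM. Muscle marker sums ran from 173 CPM upwards in the sham libraries and from 107 to 329 CPM in the 7 left CCI libraries. They were 177 to 2030 CPM in SOD-CCI contralateral and 219 to 7732 CPM in FOD-CCI contralateral. The highest of these, in replicate 3, stood against 169 CPM in the left library of the same rat. Macrophage marker sums (10 genes) were 36.8 to 186 CPM in SOD-CT, 182 to 284 CPM in SOD-CCI, 63.9 to 288 CPM in FOD-CT and 162 to 627 CPM in FOD-CCI. The part of muscle, spinal cord or macrophage RNA in the results below was not tested. In whole ganglia, fewer cells of a type and less RNA per cell cannot be told apart.

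FOD-CCI replicate 1 stood apart in the genes described here as well. Its Atf3, Klf6 and Cebpd levels were the lowest of all 20 libraries, and its mean standardised level over the 9 genes was −1.132, also the lowest. The other 6 CCI libraries had mean standardised levels of 0.4275 to 1.467, and the 13 sham and contralateral libraries −1.004 to 0.09298. This library goes against its label in these genes, and it is named by its label throughout. Because it was singled out in part by these same genes, leaving it out favours their being called. Results without it are therefore descriptions and not independent support. The main results of each comparison that includes it are given with and without it.

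Per gene length, in the deposited FPKM, Jun was the most abundant of the 9 in sham ganglia. Its median FPKM in SOD-CT was 42.3, above that of every other member without overlap. Cebpd (25.0), Atf3 (21.7), Klf6 (17.0), Klf7 (13.1) and Smad1 (10.4) followed, each overlapping its neighbour in this order. Myc (4.37), Sox11 (1.55) and Creb5 (0.762) were lowest. Myc lay below Smad1 without overlap, and Myc, Sox11 and Creb5 each overlapped the next. In SOD-CCI the order changed at the top and at Sox11. Atf3 led with a median of 183 FPKM (160.1 to 217 FPKM), above Jun at 117 FPKM (108 to 145 FPKM), and both lay above Cebpd at 33.5 FPKM. Klf7 (26.3), Klf6 (25.5) and Smad1 (22.6) were next, with Cebpd, Klf7, Klf6 and Smad1 each overlapping the next. Sox11 (15.6) lay below Smad1 and above Myc (5.49), and Creb5 (1.28) was last, without overlap at these 3 steps.

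Atf3 (gene ID 25389), a stress-induced factor that is widely used to mark axotomised neurons, had the widest range of the 9. On the soy oil diet it was at 13.3, 46.5, 13.1 and 47.3 CPM in SOD-CT, at 5.96, 15.0 and 8.55 CPM on the contralateral side, and at 333, 263 and 294 CPM in SOD-CCI. In the fish oil groups it was at 21.8, 40.4 and 14.2 CPM in FOD-CT, at 7.01, 10.6 and 10.5 CPM on the contralateral side, and at 3.27, 202, 501 and 334 CPM in FOD-CCI. All SOD-CCI libraries and the last 3 FOD-CCI libraries lay above all 13 sham and contralateral libraries, and FOD-CCI replicate 1 lay below all of them. The means were 297 ± 35.1 CPM (SD, n = 3) in SOD-CCI against 30.1 ± 19.4 CPM (SD, n = 4) in SOD-CT. In FOD-CCI the mean was 260.0 ± 211 CPM (SD, n = 4), or 346 ± 150.2 CPM (SD, n = 3) without replicate 1, against 25.5 ± 13.4 CPM (SD, n = 3) in FOD-CT. The second Atf3 entry, 401 bases long against 1496 for the first, followed the same order at a lower level. It was at 20.6 to 24.6 CPM in SOD-CCI, at 13.03 to 28.7 CPM in FOD-CCI replicates 2 to 4, at 0 in FOD-CCI replicate 1 (a count of 0 allows up to 0.112 CPM) and at no more than 3.61 CPM in any sham or contralateral library. How reads were shared between both entries was not given in the sources used here. The short entry did not pass the filter on low counts and is left out of the counts of genes below.

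Jun (gene ID 24516), an AP-1 subunit that is activated by Jun kinases after axon injury, was high in every library and higher still after injury. On the soy oil diet it was at 121, 149, 131 and 117 CPM in SOD-CT, at 94.1, 123 and 103 CPM on the contralateral side, and at 459.6, 399 and 360.5 CPM in SOD-CCI. Among fish oil libraries it was at 98.4, 119 and 89.3 CPM in FOD-CT, at 60.01, 86.0 and 125 CPM on the contralateral side, and at 101, 203, 489 and 399 CPM in FOD-CCI. The 3 SOD-CCI libraries and FOD-CCI replicates 2 to 4 lay above all 13 sham and contralateral libraries, whereas FOD-CCI replicate 1 lay inside their range. The means were 406 ± 49.97 CPM (SD, n = 3) in SOD-CCI and 129.5 ± 14.2 CPM (SD, n = 4) in SOD-CT. In FOD-CCI the mean was 298 ± 178 CPM (SD, n = 4), or 364 ± 146 CPM (SD, n = 3) without replicate 1, against 102 ± 15.2 CPM (SD, n = 3) in FOD-CT.

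**Figure D1:**
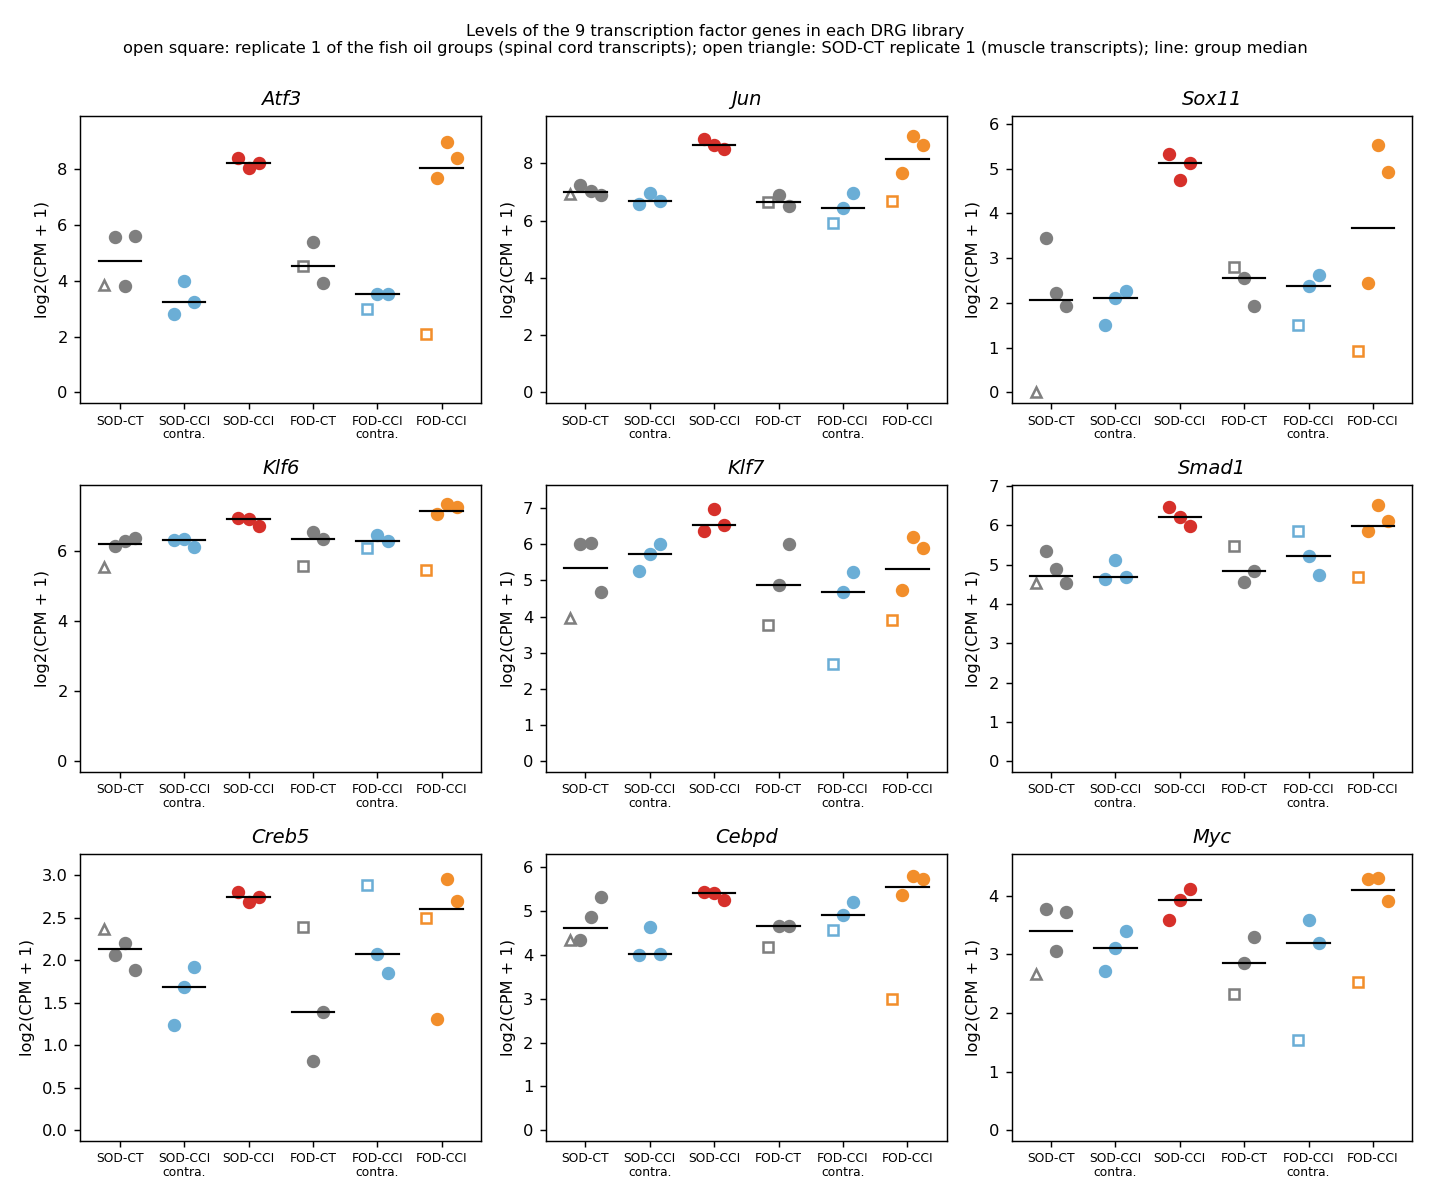
Level of each of the 9 genes as log2(CPM + 1) on the y axis, 1 symbol per library, in the 6 groups on the x axis, with the group median as a line. Open squares are replicate 1 of the 3 fish oil groups, which carried spinal cord transcripts, and the open triangle is SOD-CT replicate 1, which carried muscle transcripts. For Atf3, Jun and Klf6 the 3 SOD-CCI libraries and FOD-CCI replicates 2 to 4 sit above all 13 uninjured libraries, and the open square of FOD-CCI does not.

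Sox11 (gene ID 84046), a SoxC factor of immature neurons, was low in uninjured ganglia. On the soy oil diet it was at 0, 9.91, 3.66 and 2.80 CPM in SOD-CT, at 1.83, 3.33 and 3.82 CPM on the contralateral side, and at 39.0, 26.0 and 33.9 CPM in SOD-CCI. In the fish oil groups it was at 6.02, 4.90 and 2.84 CPM in FOD-CT, at 1.86, 4.17 and 5.21 CPM on the contralateral side, and at 0.893, 4.47, 45.5 and 29.3 CPM in FOD-CCI. The 3 SOD-CCI libraries and FOD-CCI replicates 3 and 4 lay above every uninjured library, while FOD-CCI replicates 1 and 2 lay within the uninjured range. In SOD-CT replicate 1, where muscle transcripts were high, the count of 0 allows up to 0.132 CPM. The 250 bases before the Sox11 start (RefSeq, GRCr8, chr6:49738795-49739044, minus strand) are shown because Sox11 had the second largest left-to-right difference among the 9 genes in the soy oil rats, and the capitals mark a GC box, the letters CCGCCC, which are read by Sp and Klf factors.
Sox11: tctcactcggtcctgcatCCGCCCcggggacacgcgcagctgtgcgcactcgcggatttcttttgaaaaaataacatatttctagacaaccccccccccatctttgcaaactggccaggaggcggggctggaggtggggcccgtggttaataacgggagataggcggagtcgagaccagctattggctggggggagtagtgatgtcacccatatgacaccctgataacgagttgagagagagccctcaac

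Klf6 (gene ID 58954) and Klf7 (gene ID 363243) are closely related Krüppel-like zinc finger factors that favour axon growth. Klf6 was at 45.7, 69.4, 76.0 and 80.6 CPM in SOD-CT, at 77.9, 80.3 and 68.0 CPM on the contralateral side, and at 121, 118 and 103 CPM in SOD-CCI. It was at 45.9, 91.7 and 80.1 CPM in FOD-CT, at 66.4, 86.3 and 76.8 CPM on the contralateral side, and at 42.8, 131, 159 and 149 CPM in FOD-CCI. Klf6 thus had a narrow range in uninjured ganglia, and 6 of the 7 CCI libraries lay above it, with FOD-CCI replicate 1 below it. Klf7 was at 14.7, 62.8, 63.9 and 24.6 CPM in SOD-CT, at 37.0, 52.2 and 63.2 CPM on the contralateral side, and at 81.8, 125 and 90.5 CPM in SOD-CCI. It was at 12.5, 28.1 and 63.1 CPM in FOD-CT, at 5.50, 24.5 and 36.3 CPM on the contralateral side, and at 13.9, 25.8, 72.0 and 58.7 CPM in FOD-CCI. The SOD-CCI libraries lay above all uninjured libraries for Klf7, but the FOD-CCI and FOD-CT libraries overlapped, with and without replicate 1. Replicate 1 of SOD-CT, with muscle transcripts, and of the 3 FOD groups, with spinal cord transcripts, had the 4 lowest Klf7 levels of the 20, 14.7, 12.5, 5.50 and 13.9 CPM.
The upstream bases of this pair (RefSeq, GRCr8, minus strand for both, Klf6 at chr17:69458479-69458728 and Klf7 at chr9:73020057-73020306) are shown so that the paralogs can be compared, and the capitals mark GC boxes (GGGCGG on this strand) and, in Klf6 only, an E-box, the letters CACGTG, which Myc and its partners read.
Klf6: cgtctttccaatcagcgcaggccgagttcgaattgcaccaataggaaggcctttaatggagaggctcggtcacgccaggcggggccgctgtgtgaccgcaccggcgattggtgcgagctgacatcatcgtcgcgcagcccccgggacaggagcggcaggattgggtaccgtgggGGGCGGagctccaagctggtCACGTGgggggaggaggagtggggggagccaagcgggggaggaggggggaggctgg
Klf7: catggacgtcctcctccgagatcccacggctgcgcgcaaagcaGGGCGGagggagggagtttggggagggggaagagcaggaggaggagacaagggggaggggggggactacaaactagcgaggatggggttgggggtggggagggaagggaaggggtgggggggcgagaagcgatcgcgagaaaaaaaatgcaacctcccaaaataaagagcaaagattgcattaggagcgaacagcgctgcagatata

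Smad1 (gene ID 25671), the nuclear carrier of BMP signals, was at 22.0, 40.0, 28.8 and 22.0 CPM in SOD-CT, at 23.7, 33.5 and 24.7 CPM on the contralateral side, and at 87.4, 73.7 and 62.5 CPM in SOD-CCI. On the fish oil diet it was at 43.8, 22.7 and 27.4 CPM in FOD-CT, at 56.8, 36.0 and 25.5 CPM on the contralateral side, and at 24.6, 56.4, 90.6 and 68.4 CPM in FOD-CCI. The SOD-CCI libraries lay above all 13 uninjured libraries, and so did FOD-CCI replicates 3 and 4. The highest uninjured value, 56.8 CPM, came from the contralateral library with spinal cord transcripts and was just above FOD-CCI replicate 2. The 250 bases before the Smad1 start (RefSeq, GRCr8, chr19:45417292-45417541, plus strand) are shown because Smad1 was called beside Atf3 and Jun in the soy oil rats when replicate 1 of FOD-CCI was left out, and the capitals mark 2 GC boxes.
Smad1: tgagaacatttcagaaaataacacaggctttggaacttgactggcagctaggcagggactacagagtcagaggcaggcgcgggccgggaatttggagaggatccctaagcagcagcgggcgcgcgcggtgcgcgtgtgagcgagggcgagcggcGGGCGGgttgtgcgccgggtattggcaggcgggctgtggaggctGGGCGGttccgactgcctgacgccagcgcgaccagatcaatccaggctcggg

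Creb5 (gene ID 500131), a CREB-family factor, had the lowest FPKM of the 9 in SOD-CT and in SOD-CCI. On the soy oil diet it was at 4.17, 3.19, 3.59 and 2.69 CPM in SOD-CT, at 1.36, 2.22 and 2.78 CPM on the contralateral side, and at 6.002, 5.43 and 5.70 CPM in SOD-CCI. In the fish oil groups it was at 4.23, 0.758 and 1.62 CPM in FOD-CT, at 6.39, 3.22 and 2.61 CPM on the contralateral side, and at 4.65, 1.48, 6.76 and 5.49 CPM in FOD-CCI. In CPM, SOD-CCI lay above SOD-CT without overlap, whereas FOD-CCI and FOD-CT overlapped, and only FOD-CCI replicate 3 lay above all uninjured libraries. In the deposited FPKM, which are scaled between libraries, SOD-CCI and SOD-CT overlapped as well. There SOD-CT replicate 1, with muscle transcripts, was at 1.60 FPKM, above SOD-CCI at 1.19 to 1.41 FPKM.

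Cebpd (gene ID 25695), a C/EBP factor induced by cytokines of the interleukin-6 family, was at 19.2, 19.4, 28.3 and 38.8 CPM in SOD-CT, at 15.1, 23.8 and 15.4 CPM on the contralateral side, and at 42.6, 41.9 and 37.3 CPM in SOD-CCI. Among fish oil libraries it was at 17.2, 24.2 and 24.2 CPM in FOD-CT, at 22.9, 29.3 and 36.1 CPM on the contralateral side, and at 6.95, 40.2, 54.9 and 52.2 CPM in FOD-CCI. SOD-CCI replicate 3 lay under SOD-CT replicate 4, so that the soy oil groups overlapped. FOD-CCI replicates 2 to 4 lay above all uninjured libraries, and replicate 1 lay below all of them.

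Myc (gene ID 24577) was at 5.35, 12.7, 7.35 and 12.2 CPM in SOD-CT, at 5.56, 7.63 and 9.55 CPM on the contralateral side, and at 10.99, 14.1 and 16.3 CPM in SOD-CCI. Among fish oil libraries it was at 3.98, 6.21 and 8.77 CPM in FOD-CT, at 1.91, 10.9 and 8.17 CPM on the contralateral side, and at 4.76, 18.5, 18.7 and 14.03 CPM in FOD-CCI. The soy oil CCI and sham groups overlapped, and 5 of the 7 CCI libraries lay above all uninjured libraries.

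The listed upstream windows were searched on both strands for the letters of sites that the 9 factors or their partners read. Of the 5 members with a listed window (Sox11, Klf6, Klf7, Smad1 and Creb5), none held TGANTCA (AP-1), TGACGTCA (CRE) or TTCNNNGAA (STAT) in the 250 bases, and among 33469 listed windows of the same length 6.34%, 1.59% and 7.67% did. A GC box was present in 4 of the 5 windows against 30.5% of all windows, and CACGTG was present in Klf6, 56 to 51 bases before the start, against 5.59% of all windows. These matches describe letters in a window and are not evidence of binding. Atf3, Jun, Cebpd and Myc had no listed window.

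Across the 20 libraries the 9 genes tended to be high together. Over the 36 pairs of members, Pearson's r of log2 CPM ran from 0.035 to 0.92 with a median of 0.656, and 26 pairs were above 0.5. Over the 13 uninjured libraries alone the same pairs ran from −0.61 to 0.77 with a median of 0.14. Jun (r = 0.9335) and Atf3 (r = 0.9313) followed the mean standardised level of the 9 genes most closely over 20 libraries, and Creb5 (r = 0.4206) least. These correlations are descriptions, since each gene is part of that mean and the libraries share the injury contrast, tissue makeup and depth.

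**Figure D2:**
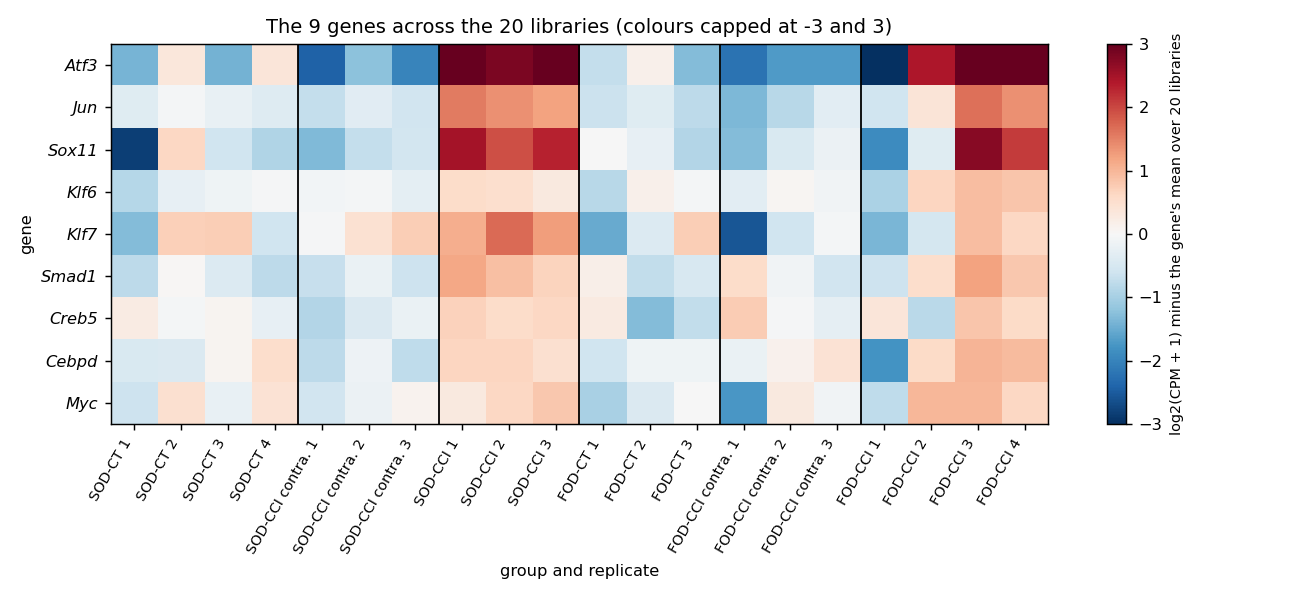
The 9 genes (y axis) in the 20 libraries ordered by group and replicate (x axis), coloured by log2(CPM + 1) minus the gene's mean over all libraries, capped at −3 and 3. Red columns mark the 3 SOD-CCI libraries and FOD-CCI replicates 3 and 4, FOD-CCI replicate 2 is mixed, and FOD-CCI replicate 1 is blue in all genes but Creb5.

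The comparison of injured with sham ganglia asked how the genes responded to CCI on each diet. On the soy oil diet, all 9 genes lay higher on average in SOD-CCI than in SOD-CT. In CPM, which is not scaled between libraries, 7 of 9 (all but Cebpd and Myc) did not overlap between the groups. By the same measure 11.8% of all genes tested lay wholly higher. Of these 7, Creb5 alone overlapped in the scaled FPKM, where SOD-CT replicate 1 (1.60) lay above SOD-CCI (1.19 to 1.41). The share of all genes in FPKM was not counted. None of the 9 passed the call rule in edgeR (adjusted p up to 0.1, fold 1.2 or more), and neither did any of the 14484 genes tested (0%). At an unadjusted p under 0.05 there were 4 of the 9 genes and 2006 of all genes, and DESeq2 called 3 of the 9 (Jun, Atf3 and Smad1) among 594 genes (4.1%). The edgeR log2FC was 3.18 ± 0.95 (SE) for Atf3 (adjusted p = 0.266), 1.45 ± 0.40 for Jun (adjusted p = 0.266), 1.23 ± 0.35 for Smad1 (adjusted p = 0.266) and 2.99 ± 1.13 for Sox11 (adjusted p = 0.306). Klf7 was at 1.17, Klf6 at 0.59, Creb5 at 0.49, Cebpd at 0.44 and Myc at 0.40. The median log2FC of the 9 genes was 1.17, against −0.01 over all genes. Averaged over libraries, TMM scaling moved all genes of this comparison by −0.187 on the log2 scale relative to library totals. That mean is smaller than each of the 9 values, but it was not spread evenly. The TMM factor was 0.656 in SOD-CT replicate 1 and 0.986 to 1.086 in the other SOD-CT and SOD-CCI libraries. The CPM of that library are therefore lower than its scaled levels.

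All 4 left groups share the spread of this fit, and without FOD-CCI replicate 1 the SE of Jun was 0.28 in place of 0.40. Without that library, Atf3 (adjusted p = 0.0722), Jun (adjusted p = 0.0807) and Smad1 (adjusted p = 0.0967) rose in SOD-CCI in edgeR, among 47 of 14620 genes (0.321%), with log2FC values of 3.18, 1.45 and 1.23. The same 3 genes passed when SOD-CT replicate 1 and FOD-CT replicate 1 were left out as well, among 200 genes (1.32%). With the replicate number as a block, 1 gene was called and none of the 9.

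On the fish oil diet, all 9 genes again lay higher in FOD-CCI than in FOD-CT on average, but in none of the 9 were the groups apart, against 2.05% of all genes. Without FOD-CCI replicate 1, 6 of the 9 were apart (Jun, Atf3, Klf6, Smad1, Cebpd and Myc), against 8.32% of all genes. In edgeR with all libraries, none of the 9 and none of all genes (0%) passed, with 4 of the 9 and 654 of all genes at an unadjusted p under 0.05, and DESeq2 called Jun among 21 genes (0.145%). The log2FC was 3.35 ± 1.04 (SE) for Atf3, 1.57 ± 0.42 for Jun, 2.17 ± 1.18 for Sox11 and 1.00 ± 0.36 for Smad1, each with an adjusted p of 1 in edgeR. Myc was at 1.18, Creb5 at 1.15, Cebpd at 0.84, Klf6 at 0.74 and Klf7 at 0.33. The median of the 9 genes was 1.15, against 0.01 over all genes. Without replicate 1, Atf3 (log2FC 3.76 ± 0.58) and Jun (log2FC 1.86 ± 0.31) rose, both with an adjusted p of 0.049 in edgeR, among 43 genes (0.294%). Without FOD-CT replicate 1 and SOD-CT replicate 1 too, Klf6 (adjusted p = 0.0677) and Smad1 (adjusted p = 0.0311) joined them in edgeR, among 526 genes (3.47%).

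Averaged over both diets, the 9 genes had log2FC values from 0.64 (Cebpd) to 3.27 (Atf3), all above 0, with a median of 0.82 against −0.01 over all genes. Jun (1.51 ± 0.29, adjusted p = 0.101), Atf3 (3.27 ± 0.71, adjusted p = 0.111) and Smad1 (1.12 ± 0.25, adjusted p = 0.118) came nearest to the edgeR threshold. None of the 9 and no gene (0%) passed it, 6 of the 9 and 1661 of all genes were at an unadjusted p under 0.05, and DESeq2 called Jun, Atf3 and Smad1 among 476 genes (3.29%). With no filter on counts, edgeR called 3 of the 9 among 224 genes (0.795%). Without FOD-CCI replicate 1, 7 of the 9 rose in edgeR, among 517 genes called (3.54%). They were Jun (1.65, adjusted p = 0.00356), Atf3 (3.47, adjusted p = 0.00356), Smad1 (1.25, adjusted p = 0.00588), Klf6 (0.81, adjusted p = 0.0393), Cebpd (0.82, adjusted p = 0.0503), Sox11 (2.78, adjusted p = 0.0722) and Myc (0.93, adjusted p = 0.0809). Klf7 (0.90, adjusted p = 0.284) and Creb5 (0.82, adjusted p = 0.403) did not pass in edgeR. Without SOD-CT replicate 1, FOD-CT replicate 1 and FOD-CCI replicate 1, but with FOD-CT replicate 2 and its lower level of muscle transcripts, 8 of the 9 rose, all but Klf7, among 1180 genes (7.77%). Over both diets, the 3 SOD-CCI libraries and FOD-CCI replicates 2 to 4 lay above all 13 uninjured libraries for Jun, Atf3 and Klf6, as for 0.942% of all genes. With FOD-CCI replicate 1 included, no member had all 7 above all 13, as for 0.0554% of all genes.

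**Figure D3:**
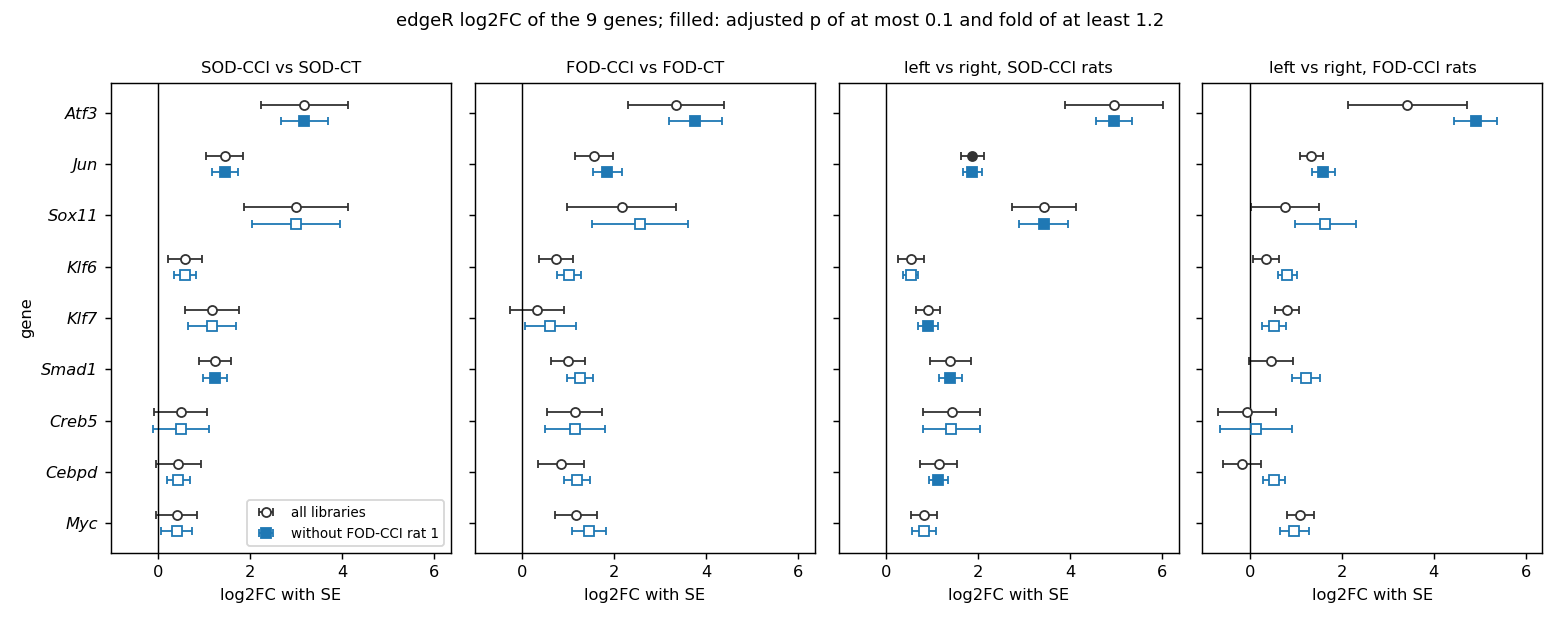
The edgeR log2FC (x axis) with its SE for each of the 9 genes (y axis) in the sham comparison and the left-to-right comparison of each diet, with all libraries (circles) and without FOD-CCI rat 1 (squares). Filled symbols passed the call rule (adjusted p up to 0.1, fold 1.2 or more). With all libraries only Jun in SOD-CCI rats, left against right, is filled. Without rat 1, Atf3 and Jun are filled in all 4 panels.

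The comparison of the injured left with the uninjured right DRG of the same rat removed differences between animals. In the 3 SOD-CCI rats all 9 genes were higher on the left in every rat, as were 25% of all genes. Atf3 was 56.0-, 17.5- and 34.4-fold higher on the left in rats 1, 2 and 3, Sox11 was 21.3-, 7.83- and 8.87-fold higher, and Jun was 4.88-, 3.25- and 3.50-fold higher. For these 3 genes the smallest fold was larger than the spread between rats (the largest over the smallest fold). The same held for Smad1, Cebpd, Myc and Klf6 below, but not for Klf7 and Creb5. Smad1 was 3.69-, 2.20- and 2.53-fold higher, Creb5 was 4.40-, 2.45- and 2.05-fold higher, and Cebpd was 2.82-, 1.76- and 2.43-fold higher. Klf7 was 2.21-, 2.40- and 1.43-fold higher, Myc was 1.98-, 1.85- and 1.70-fold higher, and Klf6 was 1.56-, 1.47- and 1.51-fold higher. The folds of Klf6 and Myc were small and differed little between rats.

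In the 3 FOD-CCI rats with both sides, Jun, Klf7 and Myc were higher on the left in every rat, 3 of 9, against 11.4% of all genes. Atf3 was 0.467-, 19.1- and 47.7-fold of the right side in rats 1, 2 and 3, Jun was 1.69-, 2.37- and 3.92-fold, and Sox11 was 0.479-, 1.07- and 8.74-fold. Rat 1 thus had the reverse order for Atf3 and Sox11, rat 2 had more Atf3 and Jun on the left but nearly equal Sox11, and in rat 3 all 3 genes were higher on the left. Smad1 was 0.434-, 1.57- and 3.55-fold, Cebpd was 0.303-, 1.37- and 1.52-fold, and Creb5 was 0.728-, 0.459- and 2.59-fold. Klf7 was 2.53-, 1.05- and 1.99-fold, Myc was 2.496-, 1.69- and 2.29-fold, and Klf6 was 0.644-, 1.51- and 2.07-fold. In rat 1 the right library held fewer neuronal transcripts than the left one (0.389% against 1.99% of counts) and more spinal cord transcripts, and their part in its folds was not tested. In the 5 other rats 8 of 9 genes, all but Creb5, were higher on the left in each, against 11.5% of all genes, and in all 6 rats it was Jun, Klf7 and Myc, against 5.16%.

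**Figure D4:**
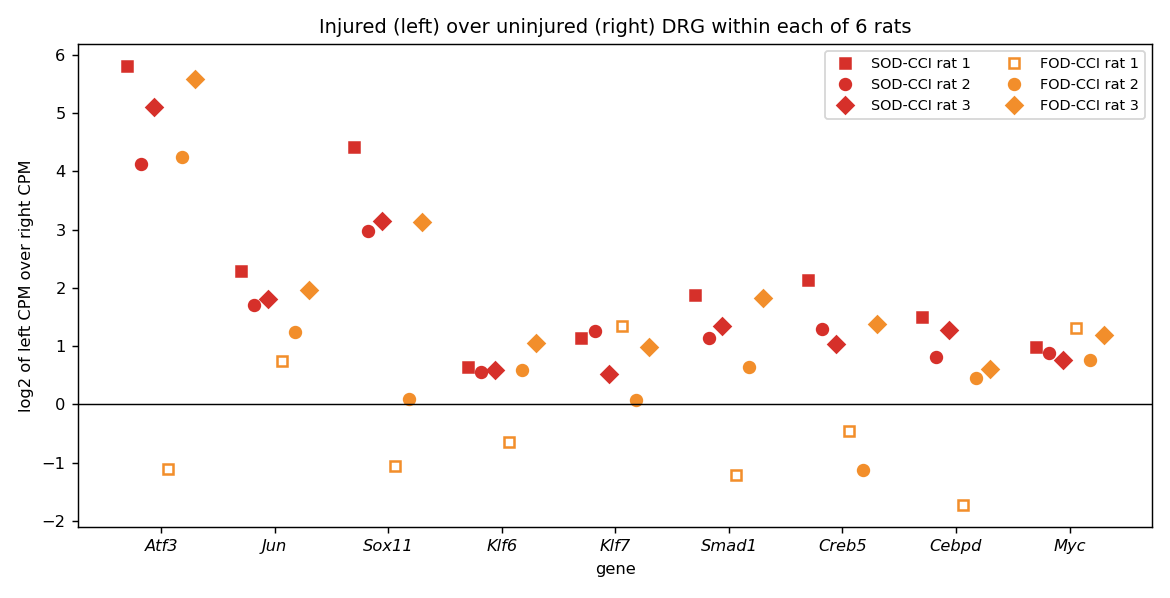
The log2 of left CPM over right CPM (y axis) for each gene (x axis), 1 symbol per rat, red for SOD-CCI and orange for FOD-CCI, with the open square for FOD-CCI rat 1. All red symbols lie above 0. The open square lies below 0 for 6 genes and above 0 for Jun, Klf7 and Myc.

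With the rat as a block, edgeR called Jun in the SOD-CCI rats (log2FC 1.88 ± 0.25, adjusted p = 0.0538, higher in 3 of 3 rats), among 19 of 14549 genes (0.131%). Atf3 (4.96 ± 1.063, adjusted p = 0.189) and Sox11 (3.44 ± 0.69, adjusted p = 0.166) had larger values and larger errors and did not pass in edgeR. At an unadjusted p under 0.05 there were 8 of the 9 and 1234 of all genes. DESeq2 called Jun, Atf3, Klf7, Smad1 and Sox11 among 472 genes (3.24%). The call of Jun was lost on leaving out SOD-CCI rat 1 (adjusted p = 0.802), 2 (adjusted p = 0.723) or 3 (adjusted p = 0.429) or FOD-CCI rat 2 (adjusted p = 0.129), or the rat as a block. Without FOD-CCI rat 1, 6 of the 9 rose in the SOD-CCI rats in edgeR, among 471 genes (3.14%). These were Atf3 (adjusted p = 0.000463), Jun (adjusted p = 0.00384), Sox11 (adjusted p = 0.0149), Smad1 (adjusted p = 0.0255), Cebpd (adjusted p = 0.0263) and Klf7 (adjusted p = 0.0743). Fitted on the SOD-CCI rats alone, all 9 passed, among 1461 genes (9.88%).

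In the FOD-CCI rats none of the 9 passed, among 2 of 14549 genes called (0.0137%) in edgeR, with 4 of the 9 and 1012 of all genes at an unadjusted p under 0.05, and DESeq2 called Jun among 264 genes (1.81%). Jun was at 1.34 ± 0.25 (adjusted p = 0.409 in edgeR), Atf3 at 3.43 ± 1.29 (adjusted p = 0.634), and the other 7 between −0.16 (Cebpd) and 1.10 (Myc). Without rat 1, Atf3 (4.91 ± 0.47, adjusted p = 0.00524) and Jun (1.60 ± 0.25, adjusted p = 0.0371) rose in edgeR, among 137 genes (0.914%).

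Averaged over both diets, Jun (1.61 ± 0.18, adjusted p = 0.0127, higher in 6 of 6 rats) and Atf3 (4.19 ± 0.83, adjusted p = 0.0884, higher in 5 of 6 rats) rose on the injured side in edgeR, among 140 of 14549 genes called (0.962%), of which 118 were higher. Klf7 (0.87) and Myc (0.96) each had an adjusted p of 0.111 in edgeR, Sox11 (2.10) one of 0.15, and Smad1 (0.93), Creb5 (0.68), Cebpd (0.49) and Klf6 (0.45) were further from the threshold. Jun's call was lost without SOD-CCI rat 1 (adjusted p = 0.141) or 3 (adjusted p = 0.107), and without the rat as a block (adjusted p = 0.13) in edgeR. Atf3's call was lost without any rat other than FOD-CCI rat 1 (adjusted p of 0.221 to 0.43 in edgeR) and when its 2 entries were summed (adjusted p = 0.103). Without FOD-CCI rat 1, 8 of the 9 rose, all but Creb5 (0.78, adjusted p = 0.433), among 1146 genes (7.64%), with Atf3 at 4.93 (adjusted p = 9.9e-05), Jun at 1.74 (adjusted p = 0.00088) and Sox11 at 2.54 (adjusted p = 0.012) in edgeR. With no filter on counts, left against right, edgeR called 3 of the 9 among 220 genes (0.801%) in SOD-CCI rats, 1 among 61 (0.222%) in FOD-CCI rats and 4 among 456 (1.66%) on average, and none of the 9 among 3 (0.0109%) for the difference between diets. With the filterByExpr filter, none of the 9 was among the 12 genes (0.0574%) called in FOD-CCI rats. Macrophage marker sums were also higher on the injured side in the SOD-CCI rats (182 to 284 against 29.2 to 79.0 CPM), with all 10 markers detected in every SOD-CCI library. In the FOD-CCI rats they were 323 against 129 CPM in rat 2 and 308 against 214 CPM in rat 3, higher on the left, and 162 against 319 CPM in rat 1, lower on the left. The markers were not of 1 direction in rat 1. Csf1r (48.2 against 109.8 CPM), C1qa (56.8 against 115.7 CPM) and most others were lower on the left. Aif1 (15.8 against 10.2 CPM), Cd68 and Cd163 were higher. The part of macrophage RNA in the values of the 9 genes was not tested.

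Diet was compared within injury. In FOD-CCI against SOD-CCI none of the 9 and no gene (0%) passed in edgeR, none of the 9 and 782 of all genes had an unadjusted p under 0.05, and DESeq2 called none of the 9 and 2 genes (0.0138%). The largest value was that of Klf7, −1.15 ± 0.58 (adjusted p = 0.859), and it was −0.86 without FOD-CCI replicate 1. The levels of Klf7 in FOD-CCI (13.9 to 72.0 CPM) lay below those in SOD-CCI (81.8 to 125 CPM) without overlap, replicate 1 included or not. Klf7 was the only 1 of the 9 to do so, against 9.28% of all genes, or 14.8% without replicate 1. The other 8 genes were between −0.66 (Sox11) and 0.15 (Klf6), with a median of −0.25 over all 9 and 2 of 9 above 0. Without FOD-CCI replicate 1 these 8 were between −0.26 (Sox11) and 0.43 (Klf6), the median of all 9 was 0.01 and 5 of 9 were above 0. In FOD-CT against SOD-CT none of the 9 and no gene (0%) passed in edgeR, none of the 9 and 491 of all genes had an unadjusted p under 0.05, and DESeq2 called no gene. Creb5 (−0.91 ± 0.60) and Myc (−0.68 ± 0.45) had the largest values, each with an adjusted p of 0.965 in edgeR, in a comparison that TMM scaling moved by −0.162 for all genes. Creb5 was at −1.71 without FOD-CT replicate 1, −0.53 without FOD-CT replicate 2 and −0.56 without SOD-CT replicate 1, and Myc was at −0.41 without FOD-CT replicate 1.

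The diet by injury interaction asked whether the injury contrast differed between diets. It ran from −0.84 (Klf7) to 0.77 (Myc), with a median of 0.16 (0.44 without FOD-CCI replicate 1, from −0.55 for Klf7 to 1.06 for Myc). Leaving out 1 library moved Klf7 from −1.26 (without FOD-CT replicate 1) to −0.13 (without FOD-CT replicate 3) and Myc from 0.50 (without FOD-CT replicate 1) to 1.06. None of the 9 and no gene (0%) passed in edgeR, with none of the 9 and 725 of all genes at an unadjusted p under 0.05 and with 42 genes and none of the 9 called by DESeq2. The smallest errors were those of Smad1 (−0.23 ± 0.50) and Klf6 (0.16 ± 0.52), and every one of the 9 values was smaller than 2 of its SE. Within rats, the left-to-right contrast had a lower value in FOD-CCI than in SOD-CCI rats for 8 of the 9, all but Myc. The median difference of the 9 was −0.94, against 0.03 over all genes. Without FOD-CCI rat 1 it was −0.28, with 2 of the 9 above 0. With all libraries, only Sox11 (−2.68 ± 0.98, unadjusted p = 0.0234) and Cebpd (−1.31 ± 0.58, unadjusted p = 0.0498) had an unadjusted p under 0.05 in edgeR, as had 424 of 14549 genes. Both had an adjusted p of 0.997 and none of the 9 was called. Without FOD-CCI rat 1 these values were −1.79 ± 0.83 and −0.62 ± 0.32.

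The right DRG of CCI rats were compared with the left DRG of sham rats, so that side and surgery differed together. Atf3 was the member with the smallest p on both diets. Contralateral levels of 5.96 to 15.0 CPM overlapped SOD-CT at 13.1 to 47.3 CPM, and those of 7.01 to 10.6 CPM lay below FOD-CT at 14.2 to 40.4 CPM without overlap, as 1 of the 9 and 4.74% of all genes did. The log2FC was −1.71 ± 0.55 (unadjusted p = 0.00775, adjusted p = 0.69 in edgeR) on soy oil and −1.45 ± 0.56 (unadjusted p = 0.0237, adjusted p = 1) on fish oil. Without FOD-CCI contralateral replicate 1, which had few neuronal transcripts, the fish oil value was −1.25 ± 0.64 (unadjusted p = 0.0757, adjusted p = 1 in edgeR). In edgeR none of the 9 and none of 14007 genes (0%) was called in either, with 1 of the 9 (Atf3) in each and 998 and 238 genes at an unadjusted p under 0.05, and DESeq2 called 52 and 0 genes and none of the 9. Between the contralateral groups none of the 9 and no gene (0%) was called in edgeR, with none of the 9 and 990 genes at an unadjusted p under 0.05, while DESeq2 called 58 genes and none of the 9. Klf7 had the largest value there, −1.16 ± 0.67, followed by Creb5 (0.94 ± 0.66) and Cebpd (0.72 ± 0.35). Without FOD-CCI contralateral replicate 1, Klf7 was at −0.69 ± 0.61 and Creb5 at 0.51, and Cebpd had the largest value, 0.90 ± 0.36 (unadjusted p = 0.0278, adjusted p = 0.938 in edgeR). Klf7 was at −1.74 without FOD-CCI contralateral replicate 3.

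The genes that these factors pair with, answer to or act on were followed in lists. These lists were chosen with earlier results of these data known, so their counts are descriptions and not independent support. Of 18 injury effector genes, which include neuropeptides, growth cone proteins and secreted signals of injured neurons, 15 passed the filter in the sham comparison, and all 15 lay higher on average over both diets (median log2FC 2.09). None passed in edgeR with all libraries, with 13 at an unadjusted p under 0.05, against 1661 of 14484 genes. Without FOD-CCI replicate 1, 10 of 16 passed, among 517 of 14620 genes. Left against right, 10 of the 14 tested rose in edgeR and none fell, among 140 of 14549 genes called (median 2.04, against 0.03 over all genes). Among them were the arginase gene Arg1 (log2FC 3.89, adjusted p = 0.00336), the neuropeptide galanin Gal (3.66, adjusted p = 0.0159), the calcium channel subunit Cacna2d1 (2.08, adjusted p = 0.0127), Ecel1 (2.61, adjusted p = 0.031) and the growth cone protein Gap43 (1.58, adjusted p = 0.0391). Csf1, which signals to macrophages and microglia, rose by 2.17 (adjusted p = 0.0354 in edgeR), and Flrt3 (2.40), Adcyap1 (1.88), Gadd45a (2.01) and Stmn4 (1.99) also rose. Stmn4 and Ecel1 were not low in every uninjured library. Stmn4 reached 141 CPM in FOD-CT and 168 CPM in FOD-CCI contralateral, above SOD-CCI at 81.2 to 110 CPM. Ecel1 reached 49.9 and 34.6 CPM there, against 29.1 to 37.3 CPM in SOD-CCI. The part of spinal cord transcripts in these values was not tested. Called in the SOD-CCI rats alone were Adcyap1, Arg1, Cacna2d1, Csf1, Ecel1 and Gal, among 19 genes, and in the FOD-CCI rats alone Arg1, among 2. Without FOD-CCI rat 1, 13 of the 16 tested were called in the SOD-CCI rats and 12 of 16 in the FOD-CCI rats (medians 2.63 and 2.35). On average over both diets it was 14 of 16 (median 2.44). Among all 14992 genes, 471, 137 and 1146 were called in these 3 comparisons. No effector gene was called for the difference between the diets, with or without that rat. Against sham, Gadd45a was at 1.78 and Flrt3 at 2.70, both with an adjusted p of 0.101 in edgeR.

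The partners of Jun and Atf3 (AP-1 and ATF list, 15 genes, 13 tested, median 0.32 left against right) included Mafk, a small Maf protein, which rose left against right (0.89, adjusted p = 0.0758 in edgeR), and Junb, which did not pass (0.69, adjusted p = 0.114). In the sham comparison they were at 0.51 and 0.62. Without FOD-CCI rat 1, Fos, Junb and Mafk were called left against right and Junb against sham. Of the gp130 and Stat3 arm, the cytokine route to Cebpd and Socs3 (9 genes, 7 tested, median 0.59), the feedback inhibitor Socs3 rose left against right (2.09, adjusted p = 0.0399 in edgeR). The leukaemia inhibitory factor receptor gene Lifr was at 0.72 (adjusted p = 0.199), and against sham Socs3 was at 2.41 and Stat3 at 0.63. Without rat 1, Jak2, Lifr, Osmr and Socs3 were called left against right and Jak2 and Socs3 against sham. Of the Creb and C/EBP relatives (6 genes, 6 tested, median 0.77), Crem rose left against right (0.71, adjusted p = 0.0915 in edgeR), and Creb3 was at 0.50. Against sham, Creb3 was at 0.62 and Cebpb at −1.59. Cebpb was at 1.73 to 23.4 CPM in SOD-CT and at 1.00 to 2.02 CPM in SOD-CCI, which overlapped. It was at 1.27 to 4.81 CPM in FOD-CT and at 1.17 to 3.98 CPM in FOD-CCI, which overlapped too. Without rat 1, Cebpa and Crem were called left against right.

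No gene was called, in either comparison with all libraries, in the 5 lists that remain. In the BMP and Smad arm (13 tested, median −0.07 left against right), the receptor gene Acvr1 was at 0.77 left against right and 0.66 against sham, and Smad9, a receptor-activated Smad like Smad1, at −0.90 and −0.84. Among the other Klf genes (12 tested, median 0.26), Klf2 was at 0.83 and Klf8 at 1.197 left against right, and Klf15 at −0.97 and Klf4 at −0.49 against sham. The mean of Klf4 was lower in SOD-CCI than in SOD-CT (4.04 against 11.1 CPM). On fish oil it was higher in FOD-CCI than in FOD-CT (15.0 against 9.77 CPM). The Myc partners (8 tested, median 0.13) had the paralog Mycn at 1.48 and Mxi1 at −0.19 left against right, and Mycn at 1.53 and Max at 0.41 against sham. The other Sox genes (8 tested, median 0.11) had Sox4, the nearest relative of Sox11 in the list, at 0.28 and Sox9 at −0.51 left against right, and Sox9 at −0.94 and Sox6 at −0.34 against sham. Sox9 reached 36.2 CPM in FOD-CT, 22.9 CPM in FOD-CCI contralateral and 17.1 CPM in FOD-CCI, but at most 7.89 CPM in the soy oil groups. The part of spinal cord transcripts in its values was not tested. The Dlk and Jnk kinases (9 tested, median 0.02), which act on Jun by phosphorylation, had Map2k4 at −0.30 and Mapk8 at 0.33 left against right, and Map3k12 at −0.23 and Map2k4 at −0.11 against sham. In these 5 lists 2, 1, 1, 0 and 0 genes had an unadjusted p under 0.05 left against right in edgeR. Without rat 1, Klf2 rose left against right (0.91, adjusted p = 0.0711 in edgeR), Smad9 (−1.25, adjusted p = 0.0104) and Map2k4 (−0.43, adjusted p = 0.0945) fell, and Mycn rose against sham (1.71, adjusted p = 0.0792).

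The genes whose levels were most like the 9, by Pearson's r over 20 libraries with their mean standardised log2 CPM, were found among 14426 genes. They were Gfra1 (0.9622), a receptor subunit for glial cell line-derived neurotrophic factor, Flrt3 (0.9614), Adcyap1 (0.9437), Socs3 (0.9404), Gap43 (0.9361), Prss12 (0.93), Chl1 (0.9267) and Parp3 (0.9263). Gfra1 had a median of 478 CPM in CCI and 119 CPM in uninjured libraries, with 108 CPM in FOD-CCI replicate 1. Flrt3 had medians of 148 and 17.8 CPM, with 12.5 CPM in that library. For all 8 genes FOD-CCI replicate 1 lay below the uninjured median. Without this library r was 0.917 to 0.974. The libraries share injury, depth and tissue makeup, and the values are descriptions.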

How the data were processed

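DRG of 20 rat libraries, from 14 rats, were studied by bulk RNA-seq. Per the labels and methods, reads were trimmed with fastp, aligned with HISAT2 and counted with featureCounts 1.5.0-p3, and the genome build and the use of strand were not given in the sources used here. The authors deposited whole-number counts per gene, which were tested as deposited. The authors also deposited FPKM values and gene lengths in bases, and these FPKM values were found to equal count over length divided by DESeq2 size factors, up to a constant. They were used to order levels between genes and to see whether SOD-CCI and SOD-CT overlapped after scaling. CPM was the count over the library total (22547190 to 54437581 counts), with no scaling between libraries.

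Differential expression was tested with the quasi-likelihood test of edgeR 4.0.16 (R 4.3.3, TMM scaling) over genes that reached 10 counts in 90% or more of a fit's libraries, with Benjamini-Hochberg adjustment, and a gene was called at an adjusted p up to 0.1 with a fold of 1.2 or more. There were 3 fits, namely the 14 left libraries by group, the 12 libraries of 6 CCI rats with the rat as a block, and the 13 sham and contralateral libraries by group. The prior count of log2 CPM was 1. The rat numbers pair left and right libraries because they name the same animal, and deviations from group means correlated at 0.43, 0.142 and 0.158 on soy oil and at 0.36, 0.114 and 0.139 on fish oil. Same-numbered sham and CCI libraries came from different rats. They correlated at 0.0685, 0.0761 and −0.0785 on soy oil and at 0.429, 0.238 and 0.192 on fish oil, where number 1 holds the libraries with spinal cord transcripts.

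Alternatives were DESeq2 1.42.0, its size factors, no count filter, the filterByExpr filter, other library sets, the replicate block and leaving out each replicate. The scripts were tested on simulated counts. The 9 genes, the gene lists and the marker lists were chosen with earlier results of these data known. From the lists, genes called in any comparison and the 2 with the smallest p in each mean comparison were named, and from all genes the 8 most correlated with the 9. Intervals and limits of counts cover counting error only. Sequences were read from RefSeq tables (GRCr8), in which 5 of the 9 genes had a window.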

Additional observations from a re-analysis of the deposited data

Results flagged for a closer look

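In 2 of the 9 genes the left-to-right contrast differed between the diets at an unadjusted p under 0.05, and in neither after adjustment. The edgeR fit tested the difference itself, and 424 of 14549 genes had an unadjusted p under 0.05 in it. For Sox11 the FOD-CCI contrast was below the SOD-CCI contrast, with a difference of −2.68 ± 0.98 on the log2 scale (adjusted p = 0.997). Its left over right folds were 21.3, 7.83 and 8.87 in the SOD-CCI rats and 0.479, 1.07 and 8.74 in the FOD-CCI rats. For Cebpd the difference was −1.31 ± 0.58 (adjusted p = 0.997 in edgeR), with folds of 2.82, 1.76 and 2.43 against 0.303, 1.37 and 1.52. In both genes FOD-CCI rat 1, whose libraries carried spinal cord transcripts, had the lowest fold. Without it the differences were −1.79 and −0.62, at unadjusted p-values of 0.0579 and 0.0802 in edgeR. The part of that rat in the difference beyond these values was not tested.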

How the results depend on the processing

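The number of genes called depended on the tool and on FOD-CCI replicate 1. With DESeq2 it was 594 (SOD), 21 (FOD) and 476 (mean) against sham, 42 for the interaction, 2 for FOD-CCI against SOD-CCI, 472 (SOD), 264 (FOD) and 790 (mean) left against right, 60 for their difference, 52 for SOD-CCI contralateral against SOD-CT and 58 between contralateral groups. With its size factors the mean sham comparison had 24. With no filter it was 224 for that comparison, 220, 61 and 456 left against right, and 3 for the difference. With filterByExpr it was 89, 12 and 258 left against right. Without SOD-CT 1, FOD-CT 1 and FOD-CCI 1, the libraries with most muscle or spinal cord transcripts (FOD-CT 2, with some muscle, stayed in), it was 200, 526 and 1180 against sham, and without the rat with spinal cord transcripts 471, 137 and 1146 left against right. Fitting only the rats of a diet gave 1461 and 1. Leaving out each replicate gave 0 to 47, 0 to 43 and 0 to 517 against sham, and 0 to 471, 0 to 137 and 8 to 1146 left against right.

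The number of the 9 genes called was 3, 1 and 3 against sham and 5, 1 and 6 left against right with DESeq2, and 1 in the mean sham comparison with its size factors. With no filter it was 3 in the mean sham comparison and 3, 1 and 4 left against right, and with filterByExpr 3 (SOD) and 4 (mean). Without the same 3 libraries it was 3, 4 and 8 against sham, and without the rat with spinal cord transcripts 6, 2 and 8 left against right. Fitting only the SOD-CCI rats gave 9. Summing both Atf3 entries, an alternative chosen after seeing the data, gave 1 in the mean left-to-right comparison. Leaving out each replicate gave 0 to 3, 0 to 2 and 0 to 7 against sham and 0 to 6, 0 to 2 and 0 to 8 left against right.

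With the replicate number as a block the sham comparisons had 1 (SOD), 0 (FOD) and 1 (mean) genes called and none of the 9, and the interaction was −0.016 for Jun and −0.59 for Atf3. Without the rat as a block, left against right, 0, 0 and 10 genes and 0, 0 and 1 of the 9 were called, and in the FOD-CCI rats Cebpd was at 0.23 and Creb5 at 0.11.

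Values that were near 0 or had large errors changed sign. Leaving out each replicate, the interaction ran from −0.22 to 0.41 for Jun and from −0.35 to 0.78 for Atf3, and Klf7 in FOD-CCI against FOD-CT from −0.086 to 1.05. Left against right in FOD-CCI rats, Cebpd ran from −0.57 to 0.52, Creb5 from −0.74 to 0.47, Smad1 from −0.23 to 1.23 and Sox11 from −0.39 to 1.65, with Cebpd at 0.52 and Creb5 at 0.14 without rat 1. The cause of these changes was not tested. No value of the 9 genes changed sign in SOD-CCI against SOD-CT, in the mean comparisons or left against right in SOD-CCI rats. With 3 or 4 libraries a group, the log2FC errors of 0.18 to 1.55 limit what could be called.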
